A study of Mus musculus with 12 samples.

Results

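The genes described here encode the parts of the mitochondrial respiratory chain that are carried in the nuclear genome. They were taken from the deposited expression table by symbol, as every gene whose name starts with Nduf, Sdha to Sdhd, Uqcr, Cox4i, Cox5, Cox6, Cox7, Cox8 or Atp5, with pseudogenes left out and a mean of at least 1 TPM over the 12 libraries (TPM is the share of a library's transcripts that a gene takes, after division by gene length). Of 47643 genes in the table, 113 carried such a name, 13 of these were pseudogenes, 5 had a mean under 1 TPM, and 95 remained. By complex, these comprise 36 subunits of complex I, 4 of complex II, 8 of complex III, 14 of complex IV and 17 of complex V, together with 16 assembly factors and other genes that share the prefixes.

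The respiratory chain sits in the inner mitochondrial membrane. Complex I (NADH dehydrogenase) and complex II (succinate dehydrogenase) feed electrons to ubiquinone, complex III passes them to cytochrome c, complex IV (cytochrome c oxidase) hands them to oxygen, and complex V (ATP synthase) uses the resulting proton gradient to make ATP. Complexes I, III, IV and V are mosaics, in which a few subunits come from mitochondrial DNA and the others are made in the cytosol from nuclear genes and imported, whereas complex II is wholly nuclear-encoded.

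The libraries were made from common lymphoid progenitors (CLPs), bone marrow cells that give rise to lymphocytes, sorted as lineage-negative, Sca1-low, c-Kit-low and IL7Rα-positive cells from male mice of 27 to 32 weeks, as the methods give the age. Firre is an X-linked gene that makes a nuclear long noncoding RNA. The groups are WT, ∆Firre (labelled KO), in which Cre driven by a CMV promoter removed the Firre gene body and promoter in the germline (line backcrossed to C57BL/6J), and rescue (labelled Rescue), which carries the same deletion together with a Firre cDNA transgene under a tetracycline-responsive element and a CAG-driven rtTA3, with doxycycline in the diet. Each group has 4 libraries, 1 per mouse by its label. CAG is active in most tissues, so the transgene is not limited to lymphoid cells, and these libraries do not separate the transgene from its driver or the diet. Values per library are given in the order of the mouse numbers, 6, 8, 10 and 11 for WT, 8, 9, 11 and 12 for ∆Firre and 1, 2, 3 and 4 for rescue.

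Firre itself stood at 25.2 to 31.6 TPM in WT, was listed at 0 TPM in every ∆Firre library and stood at 59.9 to 174 TPM in rescue, as the labels say (exact permutation test over 70 labelings, two-sided, p = 0.0286 for each pair of groups, the smallest that 4 against 4 libraries allow). The CLP genes Il7r, Flt3, Dntt, Rag1, Kit and Ly6a were present in every library, with a sum of 5450 to 8170 TPM. Of these 6, Rag1 was called higher (155 to 251 TPM in ∆Firre, 277 to 334 in rescue) and Kit lower (68.6 to 80.9 and 48.2 to 62.3 TPM) in rescue against ∆Firre. The 5 T cell genes summed to 2.68 to 20.1 TPM over the 12 libraries, with Cd4 above 0 in all of them (2.47 to 10.1 TPM), Cd3g up to 11.2 TPM and Cd3e at 0 in 8. Depth, recovered from the steps of the values, was 10977770 to 18159095 reads in WT, 14355388 to 17580567 in ∆Firre and 25755936 to 32539919 in rescue. Despite this depth the rescue libraries listed fewer genes above 0 TPM than any ∆Firre library. The numbers were 15472 to 19877 in WT, 17910 to 19098 in ∆Firre and 15140 to 16835 in rescue. Several other cell types moved with the rescue group. All 5 basophil and mast cell genes were called lower in rescue against ∆Firre, with summed levels of 1030 to 8870 TPM in WT, 2890 to 4240 in ∆Firre and 63.5 to 142 in rescue, where Fcer1a, Ms4a2 and Prss34 reached 0 in 1 or more libraries. Of 6 B cell genes, 5 were called higher in rescue and 1 (Ms4a1, at most 3.64 TPM in any library) lower, and their sum was 168 to 319 TPM in WT, 229 to 293 in ∆Firre and 508 to 872 in rescue. Of 5 genes of antibody-secreting cells 3 were called lower and 1 higher (summed 826 to 1550, 1570 to 3350 and 224 to 369 TPM in WT, ∆Firre and rescue), and 3 of 4 natural killer cell genes were called lower (325 to 682, 387 to 610 and 228 to 277 TPM). All 3 tested genes of group 2 innate lymphoid cells were called lower (sums of the list 45.5 to 80.8, 50.1 to 65.2 and 21.5 to 39.1 TPM). Of 6 neutrophil genes 1 was called lower, and their sum spread widely within each group (269 to 1250, 169 to 1550 and 122 to 1420 TPM). Of 3 plasmacytoid dendritic cell genes 1 was called higher and 1 lower. No tested macrophage, eosinophil, erythroid or T cell gene was called. Over all genes 8.58% were called higher and 19.3% lower in rescue against ∆Firre. The part of these cell type differences, of depth and of the number of genes listed in the results on the rescue group was not tested. The rescue libraries also carry a separate range of library numbers, and the labels do not say what these ranges mark. Genotype and any batch that goes with them cannot be told apart there. In bulk RNA a lower share of one cell type cannot be told apart from less of an RNA per cell.

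To ask how much of the chain the progenitors express, levels were first compared across members. Mean TPM over the 12 libraries ran from 1.56 to 652 with a median of 131, and 51 of the 95 members exceeded 100 TPM. In 93 members every library held at least 50 recovered reads. The exceptions were Cox7a1 and a second identifier that the annotation also names Ndufb8 (ENSMUSG00000091471.1), which was listed at 0 in 10 libraries, at 16.4 TPM in WT replicate 8 and at 2.28 TPM in WT replicate 10, and so passed the filter on the strength of these 2. Summed over the members, the chain took 1.39 to 1.46% of all TPM in WT, 1.27 to 1.55% in ∆Firre and 1.69 to 1.94% in rescue. The rescue libraries were thus the 4 highest.

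The Firre deletion alone left no member past the threshold. Between ∆Firre and WT, 0 of 95 members passed limma's test (called here means an adjusted p, by Benjamini and Hochberg over all genes, of no more than 0.1), where 3 of 14479 genes tested (0.0207%) did. An unadjusted p under 0.05 was seen for 7 members (7.37%) beside 5.30% of all genes, and limma-voom on the recovered reads gave 0 called members and 2 with such a p, beside 0 called and 359 with such a p of 14405 genes. The median difference of the members was −0.06 on the log2(TPM + 1) scale, on which all differences below are given, and the median over all genes was also −0.06.

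The 3 members with the smallest unadjusted p were Ndufs8, Ndufb3 and Uqcrc1. Ndufs8 stood at 148, 122, 149 and 162 TPM in WT, 109, 108, 114 and 113 TPM in ∆Firre and 167, 152, 156 and 206 TPM in rescue. Each ∆Firre value of this core iron-sulfur subunit of complex I lay below each WT value, and the difference was −0.38 (SE 0.11, limma adjusted p = 0.889). Uqcrc1, a core protein of complex III that faces the matrix, was likewise without overlap, at 71.2, 92.4, 71.2 and 71.2 TPM in WT and 56.8, 52.0, 62.0 and 63.6 TPM in ∆Firre, and differed by −0.37 (SE 0.12, adjusted p = 0.889). The accessory complex I subunit Ndufb3 lay the other way, at 147, 107, 133 and 128 TPM in WT and 170.2, 182, 138 and 179.9 TPM in ∆Firre, and its difference was 0.38 (SE 0.12, adjusted p = 0.889). In all, 6 of 95 members showed no overlap between ∆Firre and WT libraries, each with ∆Firre lower, beside 5.33% of all genes without overlap in either direction. Only 0.843% of all genes lay apart with ∆Firre higher, so most such genes of the table also lay lower in ∆Firre. None of these differences held after adjustment. With a correction for GC content Ndufs8 and Uqcrc1 differed by less, −0.19 and −0.18, and Ndufb3 by 0.35.

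In rescue the picture was different. Between rescue and ∆Firre, 49 of 95 members (51.6%) were called higher, where 8.58% of all genes were, and 1 of 95 (Sdha) was called lower, where 19.3% of all genes were. The median difference of the members was 0.42, beside −0.16 over all genes. Between rescue and WT, 42 members (44.2%) were called higher and 3 lower, against 4.82% and 19.4% of all genes, with a median of 0.31 for members and −0.21 for all genes. The comparisons of rescue with ∆Firre and of rescue with WT share the rescue libraries and so are not independent. Over all genes the TPM scale put most calls on the lower side (1242 higher and 2801 lower against ∆Firre), and rescaling each library by the median ratio to the others evened this out (1889 and 1875), raised the median of all genes to −0.05 and gave 54 members higher (13.0% of all genes) and 0 lower. Against WT the same rescaling raised the median of all genes from −0.21 to −0.03 and gave 52 members higher (8.90% of all genes) and 0 lower.

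**Figure D1:**
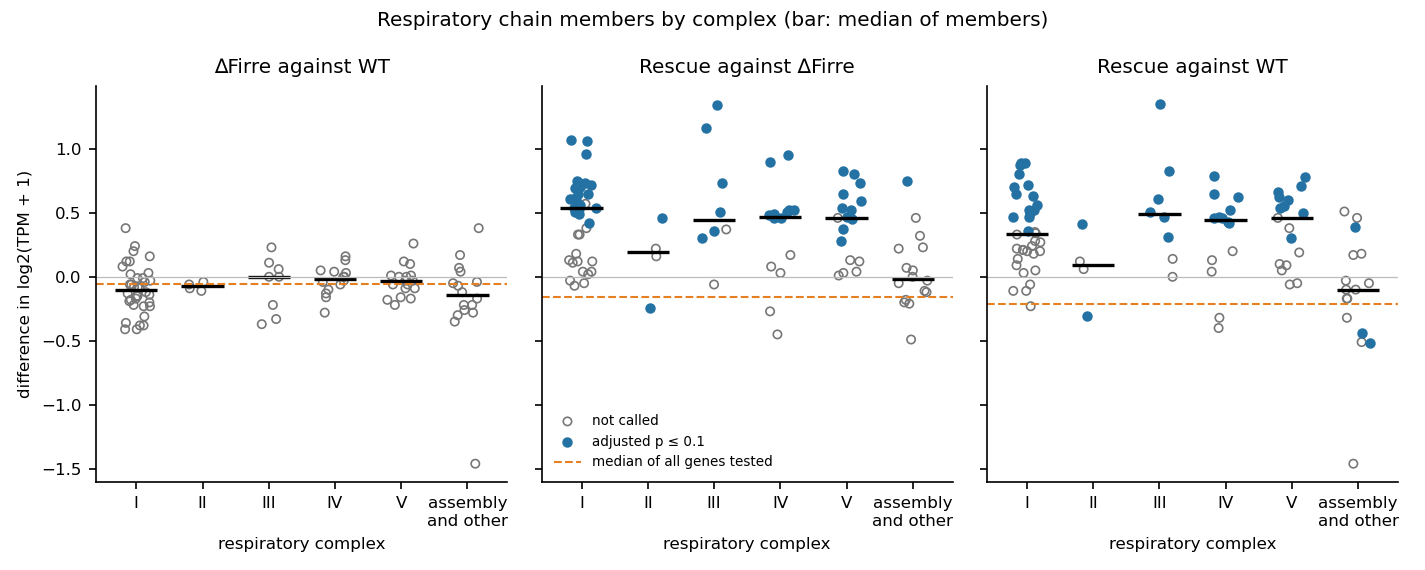
Difference in log2(TPM + 1) of each of the 95 members in the 3 comparisons, by complex (1 point per gene, filled where the limma adjusted p is 0.1 or less, black bar for the median of the members, dashed line for the median of all genes tested). No point is filled for ∆Firre against WT, while 50 are filled for rescue against ∆Firre and 45 for rescue against WT.

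Members were called in every complex. Against ∆Firre, 21 of 36 complex I subunits, 1 of 4 in complex II, 6 of 8 in complex III, 9 of 14 in complex IV and 11 of 17 in complex V were called higher, with median differences of 0.54, 0.19, 0.44, 0.47 and 0.46. Of the 16 assembly factors and other genes, 1 was called higher (6.25%, near the 8.58% of all genes), with a median of −0.01, and 3 of 16 (18.8%) were after median-ratio rescaling (13.0% of all genes) and after correction for GC content (13.7% of all genes). Against WT, the numbers called higher were 16 of 36, 1 of 4, 6 of 8, 9 of 14, 9 of 17 and, in assembly and other genes, 1 of 16. Summed over its members, complex I took 3590 to 3958 TPM in WT, 3196 to 3863 in ∆Firre and 4805 to 5359 in rescue. The sums of complexes III and V were likewise higher in each rescue library than in any other, whereas complex IV overlapped with ∆Firre (3003 to 3926 in ∆Firre, 3782 to 4908 in rescue) and complex II overlapped between all groups (598 to 688 in ∆Firre, 648 to 745 in rescue).

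**Figure D2:**
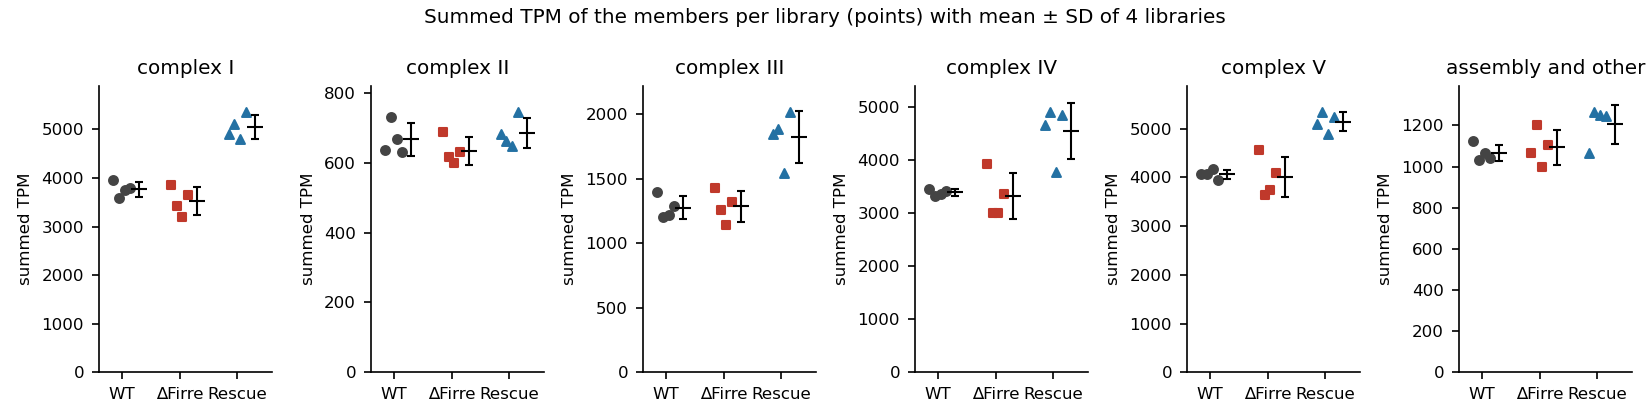
Summed TPM of the members of each complex in each library, with the mean ± SD of 4 libraries per group. The rescue libraries lie apart from the others for complexes I, III and V, and complex II and the assembly factors overlap between groups.

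Complex I, the entry point for electrons from NADH, consists of core subunits that bind the cofactors and a shell of accessory subunits. Of the 7 nuclear core subunits 3 were called higher in rescue against ∆Firre (42.9%), and 0 of 7 against WT. Of the 29 accessory subunits 18 were called higher against ∆Firre (62.1%) and 16 against WT (55.2%). The difference between core and accessory shares was not tested. Against ∆Firre the shares were 42.9% and 65.5% after median-ratio rescaling and 42.9% and 75.9% after correction for exon length, but close together after correction for GC content. With the GC correction 5 of 7 core (71.4%) and 22 of 29 accessory subunits (75.9%) were called higher against ∆Firre. Against WT 2 of 7 core subunits (28.6%), Ndufs3 and Ndufv2, and 22 of 29 accessory subunits (75.9%) were called higher with it. After median-ratio rescaling and after correction for exon length the number of core subunits against WT was also 2 of 7, but the genes were Ndufs8 and Ndufv1. Of the accessory subunits 18 of 29 (62.1%) were called higher in both settings.

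Of all members, Ndufb6 had the smallest p in rescue against ∆Firre. Ndufb6 stood at 119.7, 115, 105 and 106 TPM in WT, 109, 83.7, 96.5 and 103 TPM in ∆Firre and 199, 193, 206 and 218 TPM in rescue. For this accessory subunit of the membrane arm (ENSMUSG00000071014.10, chr4:40270591-40279421, GRCm38.p6), every rescue library lay above every other library, and the difference from ∆Firre was 1.06 (SE 0.09, adjusted p = 6.03e-05) and from WT 0.87 (SE 0.09, adjusted p = 1.64e-04). Ndufb7, another membrane arm subunit, was expressed lower, and stood at 29.2, 12.4, 19.6 and 20.3 TPM in WT, 13.2, 15.1, 15.1 and 15.9 TPM in ∆Firre and 32.1, 25.7, 37.3 and 35.3 TPM in rescue. Its rescue values lay above all ∆Firre values but overlapped with WT, where replicate 6 was the highest, and the differences were 1.07 (SE 0.21, adjusted p = 0.00531) and 0.70 (SE 0.21, adjusted p = 0.0417).

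Ndufa2 stood at 193, 124, 187 and 140.2 TPM in WT, 159.9, 154, 105 and 197 TPM in ∆Firre and 222, 364, 264 and 348 TPM in rescue. For this accessory subunit with a thioredoxin-like fold, rescue against ∆Firre gave 0.96 (SE 0.21, adjusted p = 0.00909). Ndufb4 stood at 61.1, 38.4, 66.1 and 61.5 TPM in WT, 67.8, 67.9, 57.9 and 63.0 in ∆Firre and 115, 116, 111 and 79.1 in rescue, and differed from WT by 0.89 (SE 0.17, adjusted p = 0.00497). With Ndufa2, also at 0.89, this was the largest value in complex I in that comparison on the TPM scale. After correction for GC content Ndufb4 lay below Ndufb6 (1.07 and 1.14). Ndufa6, a small LYR-motif protein and the most abundant complex I member, ranged from 241 to 432 TPM in WT, 268 to 398 in ∆Firre and 489 to 584 in rescue, without overlap between rescue and the others. Ndufb2, the least abundant by the mean over all libraries, lay at 9.80 to 14.9, 12.3 to 17.8 and 9.64 to 19.7 TPM. In ∆Firre alone the mean of Ndufb7 was slightly lower (14.8 beside 15.1 TPM). The difference of Ndufb2 from ∆Firre was −0.07 (SE 0.21, adjusted p = 0.856).

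Among the core subunits, Ndufs8 was higher in rescue than in ∆Firre by 0.61 (SE 0.11, adjusted p = 0.00299), and so were Ndufv1, which binds NADH and the flavin, by 0.51 (SE 0.13, adjusted p = 0.0203), and Ndufs7, by 0.61 (SE 0.21, adjusted p = 0.0571). Ndufs1, Ndufs3 and Ndufv2 did not pass on the TPM scale. Ndufs1 stood at 39.4, 41.2, 48.1 and 46.0 TPM in WT, 50.5, 44.4, 37.1 and 42.5 TPM in ∆Firre and 39.5, 38.1, 48.0 and 42.1 TPM in rescue, and for this largest nuclear core subunit the interval of the difference between rescue and ∆Firre was −0.31 to 0.21. For Ndufs3 the interval was −0.26 to 0.30 and for Ndufv2 −0.04 to 0.40. After correction for GC content, Ndufs1 (0.31, adjusted p = 0.088) and Ndufv2 (0.59, adjusted p = 0.00528) were called higher. Against WT, Ndufs8 gave 0.22 (SE 0.11, adjusted p = 0.177), its ∆Firre values being the lowest of the groups.

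**Figure D3:**
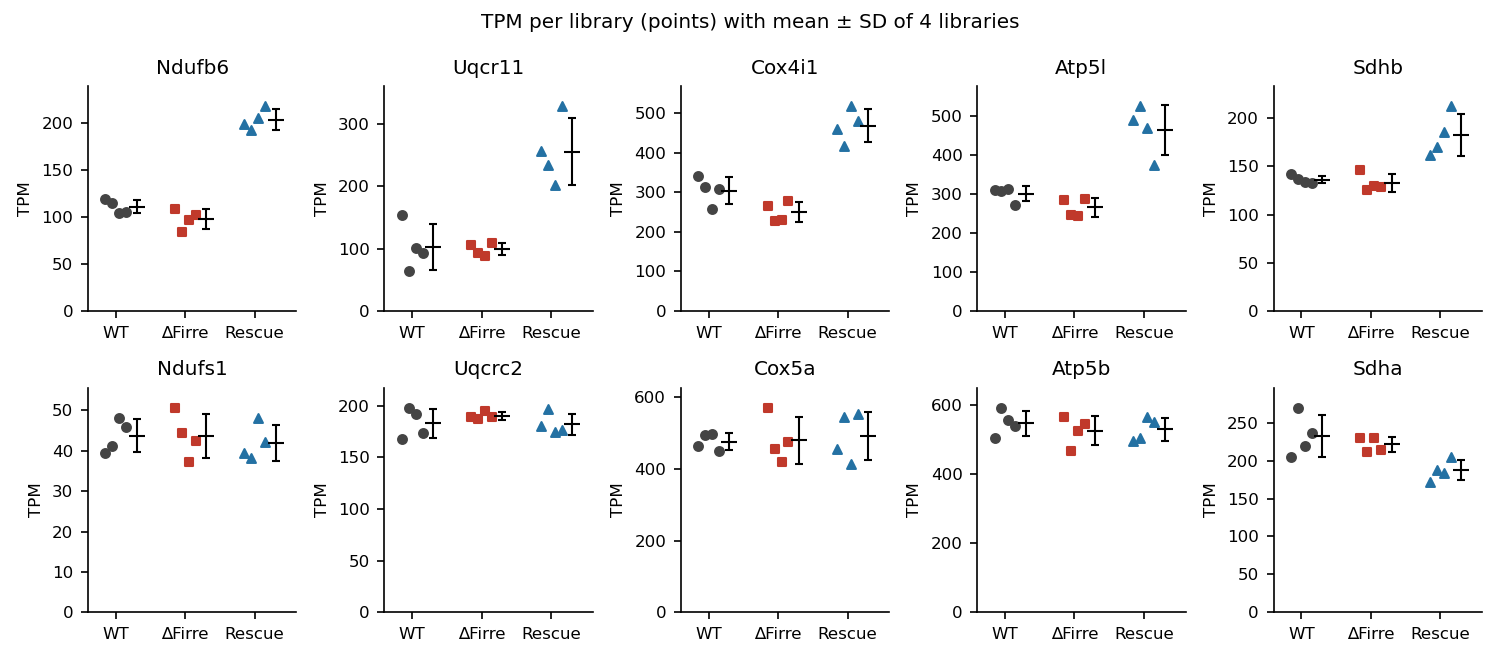
TPM of 10 members in each library, with the mean ± SD of 4 libraries per group (axes start at 0). In the upper row (Ndufb6, Uqcr11, Cox4i1, Atp5l, Sdhb) all rescue libraries lie above all others, and in the lower row Ndufs1, Uqcrc2, Cox5a and Atp5b overlap in all groups while Sdha lies lower in rescue than in ∆Firre.

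In complex II, 1 of the 4 subunits was called higher and 1 lower in rescue against ∆Firre on the TPM scale, beside 2 higher and 0 lower after median-ratio rescaling and 3 higher and 0 lower after correction for GC content. Of all genes, 13.0% were called higher and 12.9% lower after the rescaling, and 13.7% and 5.80% after the GC correction. Sdhb stood at 142, 136, 134 and 133 TPM in WT, 146, 126, 129.7 and 129 TPM in ∆Firre and 162, 170.5, 186 and 212 TPM in rescue. The iron-sulfur subunit (ENSMUSG00000009863.14, chr4:140961271-140979198, GRCm38.p6) was higher in each rescue library than in any other, by 0.46 (SE 0.09, adjusted p = 0.00544) against ∆Firre and 0.41 (SE 0.09, adjusted p = 0.01) against WT. Sdha stood at 205, 269, 219.7 and 236 TPM in WT, 230.3, 212, 229.7 and 214 TPM in ∆Firre and 172, 188, 184 and 205 TPM in rescue. The flavoprotein subunit (ENSMUSG00000021577.13, chr13:74322255-74350240), which oxidises succinate, was lower in each rescue library than in any ∆Firre library, by −0.24 (SE 0.09, adjusted p = 0.0796), but this call was lost after median-ratio rescaling (difference −0.12, adjusted p = 0.418) and the sign turned under a correction for GC content (difference 0.06, adjusted p = 0.734). Within a library, where scaling cancels but GC content does not, the ratio of Sdhb to Sdha TPM was 0.506 to 0.691 in WT, 0.564 to 0.634 in ∆Firre and 0.906 to 1.04 in rescue. After the GC correction the differences of the pair from ∆Firre lay closer together, at 0.40 for Sdhb and 0.06 for Sdha. The membrane anchors did not pass on the TPM scale. Over all libraries Sdhd had the highest mean of the 4, but in ∆Firre Sdha was about level with it (221.5 beside 220.6 TPM for Sdhd). Sdhc lay at 55.5 to 62.4 TPM in ∆Firre and 63.8 to 71.2 in rescue (0.22 (SE 0.11, adjusted p = 0.168)), and Sdhd at 183 to 249.7 and 207 to 285 (0.16 (SE 0.12, adjusted p = 0.371)). Sdhc was called higher after median-ratio rescaling (0.34, adjusted p = 0.0532), and both were after correction for GC content (0.48, adjusted p = 0.0157 and 0.43, adjusted p = 0.0359).

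Complex III held the 2 largest differences from ∆Firre of all members on the TPM scale. Uqcr11 stood at 154, 64.8, 101 and 92.2 TPM in WT, 106, 92.3, 88.8 and 109 TPM in ∆Firre and 257, 234, 202 and 328 TPM in rescue. Uqcr11 (ENSMUSG00000020163.12, chr10:80402997-80406821, GRCm38.p6), the smallest subunit of the complex, was higher in every rescue library than in any other, by 1.34 (SE 0.22, adjusted p = 0.00166) against ∆Firre and 1.35 (SE 0.22, adjusted p = 0.00204) against WT, with a mean of 98.9 ± 9.84 TPM in ∆Firre and 255 ± 53.4 TPM in rescue (SD, n = 4). Uqcrq stood at 63.6, 44.4, 41.0 and 37.9 TPM in WT, 41.8, 27.9, 37.5 and 38.9 TPM in ∆Firre and 93.4, 60.6, 80.0 and 99.2 TPM in rescue. For this small subunit near the ubiquinone site, rescue lay above ∆Firre without overlap (1.16 (SE 0.19, adjusted p = 0.00203)) and overlapped with WT through WT replicate 6 (0.83 (SE 0.19, adjusted p = 0.0134)).

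Uqcr10 was higher against ∆Firre by 0.73 (SE 0.17, adjusted p = 0.0107), Uqcrh, the hinge protein that binds cytochrome c1, by 0.36 (SE 0.10, adjusted p = 0.0272) and Uqcrc1 by 0.51 (SE 0.12, adjusted p = 0.0142). The Rieske iron-sulfur protein Uqcrfs1, which carries electrons to cytochrome c1, showed a smaller difference of 0.30 (SE 0.11, adjusted p = 0.0712). Uqcrc2, the partner of Uqcrc1, lay at 168 to 198 TPM in WT, 187 to 195 in ∆Firre and 175 to 197 in rescue, and its interval was −0.22 to 0.10. Uqcrb gave 0.37 (SE 0.18, adjusted p = 0.162) against ∆Firre and 0.61 (SE 0.18, adjusted p = 0.0362) against WT, and whether these differ was not tested. After correction for GC content all 8 members of the complex were called higher against ∆Firre, Uqcrc2 with 0.29 (adjusted p = 0.0476) and Uqcrb with 0.81 (adjusted p = 0.0071). Under this correction 13.7% of all genes with a GC value were called higher, and their median was 0.08.

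In complex IV, whose catalytic subunits come from mitochondrial DNA, 9 of 14 nuclear members were called higher in each comparison with rescue. Cox4i1 stood at 340.1, 312, 257 and 308 TPM in WT, 265, 226, 231 and 277 TPM in ∆Firre and 459, 417, 517 and 479.7 TPM in rescue. Cox4i1 (ENSMUSG00000031818.12, chr8:120668225-120674209, GRCm38.p6), the widely expressed form of the largest nuclear subunit, was higher in each rescue library than in any other library, by 0.90 (SE 0.10, adjusted p = 2.05e-04) against ∆Firre and 0.62 (SE 0.10, adjusted p = 0.00253) against WT. Its ∆Firre values were the lowest, with a difference from WT of −0.28 (SE 0.10, adjusted p = 0.929) and overlapping libraries. Cox5a, the matrix-side partner of Cox4i1, lay at 448 to 497, 418 to 569 and 414 to 552 TPM in WT, ∆Firre and rescue, with an interval of −0.21 to 0.28 against ∆Firre. The ratio of Cox4i1 to Cox5a within a library was 0.517 to 0.735 in WT, 0.466 to 0.586 in ∆Firre and 0.768 to 1.25 in rescue. Cox5b, the zinc-binding subunit, gave 0.52 (SE 0.11, adjusted p = 0.00717), and 0.39 after correction for GC content (adjusted p = 0.102).

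Several subunits of complex IV are made in alternative forms from separate genes, which in other tissues mark muscle, testis or hypoxic cells. For subunit 6a, the form known from heart and skeletal muscle was expressed beside the ubiquitous form. Cox6a2 stood at 257, 148, 186 and 252 TPM in WT, 170.4, 179, 209 and 178 TPM in ∆Firre and 389, 381, 234 and 458 TPM in rescue. Rescue lay above ∆Firre without overlap, while replicate 3, the lowest rescue library, lay within the WT range, and the differences were 0.95 (SE 0.21, adjusted p = 0.00872) and 0.79 (SE 0.21, adjusted p = 0.0228). Cox6a1, the ubiquitous form, lay at 253 to 335, 244 to 342 and 352 to 518 TPM and was called against ∆Firre (0.46 (SE 0.14, adjusted p = 0.0371)), but its sign turned under the GC correction (difference −0.11, adjusted p = 0.716), under which it was not called against WT either (adjusted p = 0.521). Cox6a2 (ENSMUSG00000030785.8, chr7:128205435-128206366, GRCm38.p6) has 658 bases of annotated exons.

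The other alternative forms were low. Cox6b2, known from testis, had a mean of 19.8 TPM beside 358 for Cox6b1, and in rescue its libraries spread from 6.90 to 32.3 TPM. Cox7a1, the muscle form of subunit 7a, was at 1.61 TPM, beside 275 for Cox7a2 and 622 for Cox7a2l, a relative that helps join complexes III and IV. Cox8a had the highest mean of all members over the 12 libraries, 652 TPM, beside Cox8b at 0.192 TPM. This rank did not hold in each group. In WT Atp5a1 was higher (615 TPM, Cox8a 593), and in ∆Firre Cox7a2l (610.5 TPM) and Atp5a1 (580 TPM) were (Cox8a 562). Cox4i2, the form known from lung and low oxygen, was at 0.132 TPM. Cox7b2, Cox8c and Ndufa4l2 were listed at 0 in all 12 libraries. Ndufa4, named after complex I but found in complex IV, was at 199.8 to 301 TPM in ∆Firre and 192 to 299.5 in rescue (0.08 (SE 0.14, adjusted p = 0.746), and 0.44 after correction for GC content, adjusted p = 0.0822).

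Of the ubiquitous forms, Cox8a was called in both comparisons with rescue (0.51 (SE 0.14, adjusted p = 0.025) and 0.42 (SE 0.14, adjusted p = 0.0617)), with overlapping libraries through rescue replicate 3, but after correction for GC content it was called in neither (0.22, adjusted p = 0.489 and 0.35, adjusted p = 0.281). Cox6b1 was called in both as well, where replicate 3 overlapped with ∆Firre but not with WT (0.46 (SE 0.13, adjusted p = 0.0266) and 0.43 (SE 0.13, adjusted p = 0.0393)). Cox7a2 stood at 228, 216, 204 and 230.4 TPM in WT, 294, 201, 237 and 261 TPM in ∆Firre and 399.7, 451, 226 and 352 TPM in rescue. Here too replicate 3 stood below the other rescue libraries and within the ∆Firre range, and the difference was 0.49 (SE 0.18, adjusted p = 0.0751). This call was lost in 11 of 23 alternatives. Cox7a2l was called against WT (0.39 (SE 0.10, adjusted p = 0.0223)). Against ∆Firre it gave 0.22 (SE 0.10, adjusted p = 0.149) and was called after median-ratio rescaling (0.34, adjusted p = 0.0805) and after correction for GC content (0.47, adjusted p = 0.0105). Among the 49 members called higher against ∆Firre, rescue replicate 3 was the lowest rescue library in 20 and replicate 4 the highest in 20, and without replicate 3 the count was 51 higher and 1 lower.

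**Figure D4:**
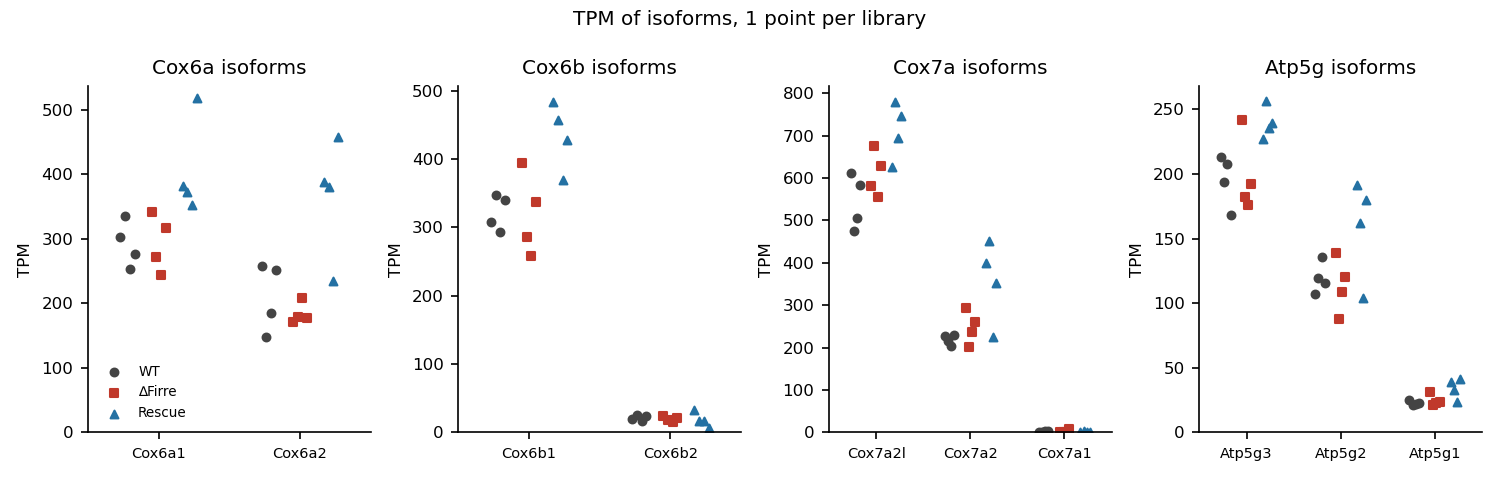
TPM of alternative forms of subunits 6a, 6b and 7a of complex IV and of the c subunit of complex V, 1 point per library. Cox6a2 lies below Cox6a1 in each ∆Firre library, at 0.644 ± 0.157 of its TPM (SD, n = 4). The ratio is 0.733 ± 0.208 in WT and 0.898 ± 0.167 in rescue, with overlapping libraries in all groups. Cox6b2, Cox7a1 and Atp5g1 are the lowest of their families.

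In complex V, the rotary ATP synthase, 2 of 5 subunits of the catalytic F1 head and 9 of 12 of the membrane part and stalks were called higher against ∆Firre. The head subunits that bind nucleotide were among the most abundant members and did not pass. Atp5a1, the α subunit, lay at 572 to 649, 518 to 633 and 537 to 638 TPM, with an interval of −0.16 to 0.21 against ∆Firre, and Atp5b, the β subunit, at 504 to 592, 467 to 567 and 497 to 565 TPM, with an interval of −0.17 to 0.19. For Atp5c1, the γ subunit of the rotor, the interval was −0.16 to 0.24. The small head subunits moved instead. Atp5d stood at 89.2, 83.0, 79.5 and 105 TPM in WT, 78.7, 80.5, 66.9 and 77.9 TPM in ∆Firre and 126, 118, 132 and 170.5 TPM in rescue. This δ subunit was higher in each rescue library than in any other, by 0.83 (SE 0.12, adjusted p = 0.00111), and the ε subunit Atp5e by 0.73 (SE 0.12, adjusted p = 0.00155).

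Atp5l stood at 311, 307, 313 and 272 TPM in WT, 286, 246, 244 and 287 TPM in ∆Firre and 491, 525, 471 and 374 TPM in rescue. Atp5l (ENSMUSG00000038717.7, chr9:44913248-44920742, GRCm38.p6), the g subunit of the membrane part, was without overlap between rescue and the others (0.80 (SE 0.11, adjusted p = 5.39e-04) and 0.62 (SE 0.11, adjusted p = 0.00286)), and its ratio to Atp5b within a library was 0.503 to 0.616 in WT, 0.465 to 0.527 in ∆Firre and 0.679 to 1.04 in rescue. Atp5h, of the peripheral stalk, gave 0.65 (SE 0.09, adjusted p = 7.22e-04) and Atp5k, the e subunit, 0.59 (SE 0.14, adjusted p = 0.0129). Atp5mpl, a small proteolipid of the complex, had the largest difference of complex V against WT. It stood at 403, 324, 393 and 429 TPM in WT, 569.8, 409, 401 and 484 in ∆Firre and 659, 734, 564 and 705 in rescue, and ∆Firre replicate 8 lay within the rescue range (0.78 (SE 0.13, adjusted p = 0.00227) against WT and 0.52 (SE 0.13, adjusted p = 0.015) against ∆Firre).

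The c ring is encoded by 3 genes that yield the same mature protein. Atp5g3 was the most expressed at 211 TPM, followed by Atp5g2 at 131 and Atp5g1 at 27.1, an order held in all 12 libraries. All were called higher against ∆Firre with overlapping libraries (0.28 (SE 0.11, adjusted p = 0.082), 0.47 (SE 0.18, adjusted p = 0.0935) and 0.45 (SE 0.18, adjusted p = 0.092)), and Atp5g2 was not called against WT (0.38 (SE 0.18, adjusted p = 0.179)). Against ∆Firre these calls lay close to the threshold and were lost in 11, 13 and 11 of 23 alternatives for Atp5g3, Atp5g2 and Atp5g1, among them for Atp5g2 the correction for GC content (adjusted p = 0.228).

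Among the 9 complex I assembly factors, 1 was called higher against ∆Firre (11.1%, near the 8.58% of all genes). Ndufaf8 lay at 20.8 ± 4.83 TPM in ∆Firre and 35.4 ± 6.87 TPM in rescue (SD, n = 4) with overlapping libraries, a difference of 0.75 (SE 0.18, adjusted p = 0.0156). Against WT, 2 of the 16 assembly factors and other genes were called lower, where 19.4% of all genes were. Ndufaf4 stood at 45.6, 47.8, 60.2 and 35.7 TPM in WT and 26.7, 25.7, 50.2 and 30.5 in rescue, where replicate 3 lay with WT (−0.52 (SE 0.20, adjusted p = 0.0906)). Sdhaf2, which inserts the flavin into Sdha, stood at 48.9, 66.5, 59.3 and 59.5 TPM in WT and 40.3, 47.0, 38.8 and 44.4 in rescue, without overlap (−0.44 (SE 0.11, adjusted p = 0.0163)). Neither held after median-ratio rescaling, under which 0 members were called lower. Of 23 alternatives, 17 lost the call of Ndufaf4 and 5 that of Sdhaf2.

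Length and GC content of the exons were set beside the differences. Over the 95 members, the difference between rescue and ∆Firre had a Spearman correlation of −0.36 with annotated exon length and 0.45 with GC content, beside −0.11 and 0.45 over 13086 genes. Against WT the values were −0.37 and 0.19 for members and −0.17 and 0.32 over all genes. Between ∆Firre and WT the values were −0.04 and −0.47 for members and −0.06 and −0.36 over all genes. These are descriptions over genes that share the same libraries. Of 37 members with under 1000 bases of exons 26 were called higher (70.3%), of 28 with 1000 to 2000 bases 14, and of 30 with 2000 or more 9. Over all genes, 13.5% of those under 1000 bases, 317 of 1987 with 1000 to 2000 bases and 7.07% of those with 2000 or more were called higher, so the middle class was the highest there.

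High expression went with these calls too. Among genes with a mean of at least 100 TPM and under 1000 bases, 45.0% of the 191 that are not members were called higher against ∆Firre, beside 24 of 29 members (82.8%). Among those of at least 100 TPM with 1000 or more bases, 17.8% of 1436 genes that are not members were, beside 10 of 22 members (45.5%). In both classes the share of members was the higher one, a difference that was not tested. The contrast between short and longer abundant members was also seen with median-ratio rescaling (24 of 29 and 11 of 22), limma-voom (25 of 29 and 11 of 22) and the correction for exon length (27 of 29 and 11 of 22), but not after correction for GC content, with 23 of 29 (79.3%) and 18 of 22 (81.8%) called higher. Over all 95 members, those of 2000 or more bases still had the lower share after that correction, 56.7% beside 70.3% of those under 1000 bases. The short and abundant genes as a whole were called higher far more often than the table. After correction for GC content 63 members were called higher against ∆Firre and 57 against WT (13.7% and 10.2% of the genes with a GC value), and after correction for exon length 57 against ∆Firre (16.4%), with 0 members called lower in each case. Of the genes with such a value 5.80%, 5.04% and 9.63% were called lower there. Against ∆Firre both corrections put most calls over all genes on the higher side. The GC correction gave 1795 higher and 759 lower (median 0.08), the length correction 2149 and 1260 (median 0.02). The head subunit Atp5b, not called on the TPM scale, was called after the GC correction (difference 0.36, adjusted p = 0.0179), so which members pass turns on this choice.

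**Figure D5:**
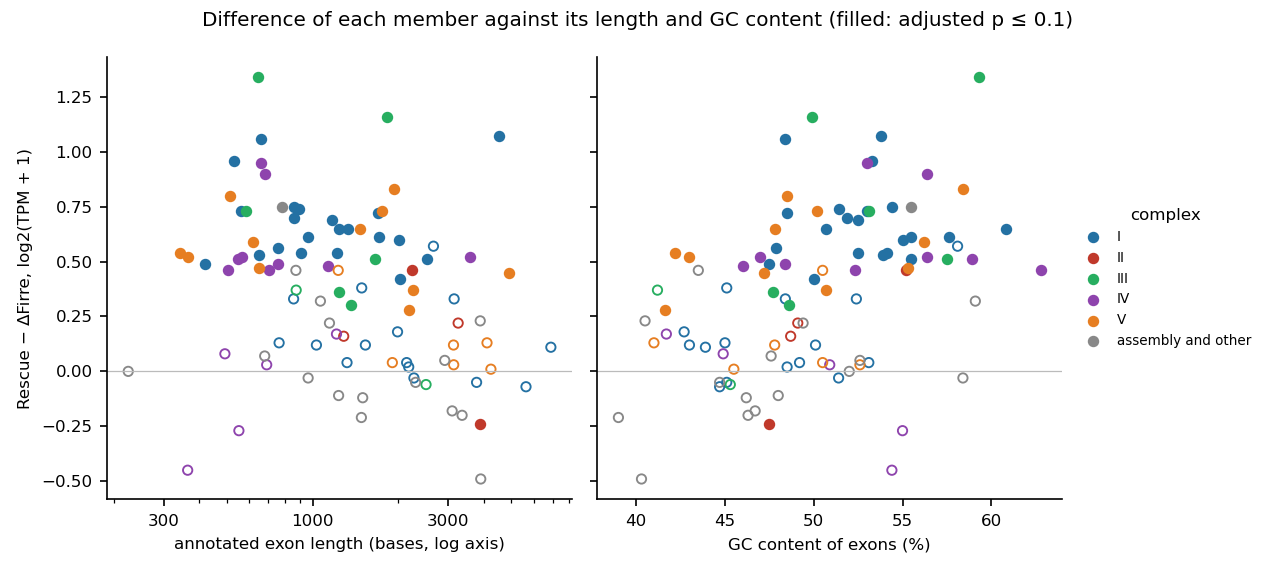
Difference between rescue and ∆Firre of each member against its annotated exon length (log axis) and the GC content of its exons, coloured by complex and filled where the limma adjusted p is 0.1 or less. Filled points are found over most of the range of GC content and are most frequent among members under 1000 bases.

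Other genes of the pathway were counted in lists by role, to be read against the 8.58% of all genes called higher and the 19.3% called lower in rescue against ∆Firre, and against the median of −0.16 over all genes. Of 13 subunits encoded by mitochondrial DNA, 2 were called higher in rescue against ∆Firre (mt-Co2, mt-Co3) and 2 lower (mt-Nd4, mt-Nd5), near those shares, with a median of −0.11. mt-Co3 had means of 2060, 2290 and 3680 TPM in WT, ∆Firre and rescue (difference from ∆Firre 0.60, SE 0.22, adjusted p = 0.0699), and mt-Nd5 5880, 6710 and 4440 TPM (−0.61, SE 0.13, adjusted p = 0.00917). Their sum ran from 92892 to 111120 TPM in WT, 101520 to 115000 in ∆Firre and 76144 to 130880 in rescue.

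Of 18 genes of the tricarboxylic acid cycle and pyruvate dehydrogenase, which supply the chain with electrons, 0 were called higher and 5 lower against ∆Firre, with a median of −0.04, above that of all genes. Those lower included Pdha1 (means of 221, 217 and 166 TPM in WT, ∆Firre and rescue, difference −0.38, SE 0.09, adjusted p = 0.0122) and Dld (205, 197 and 153 TPM, −0.36, SE 0.09, adjusted p = 0.0183). Of 13 electron carriers, subunits and ATP synthase factors outside the name rule, 2 were called higher, Etfb (1.06, SE 0.24, adjusted p = 0.0104) and Atpif1, the inhibitor of the ATP synthase (0.33, SE 0.12, adjusted p = 0.0737), and 1 lower. Of 33 further assembly factors 4 were called higher and 4 lower. Of 8 carriers and channels, 2 were higher, among them the uncoupling protein Ucp2 (132, 121 and 205 TPM, 0.75, SE 0.09, adjusted p = 2.03e-04). Of 15 glycolytic genes 2 were higher and 1 lower.

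Of 11 known regulators of respiratory genes, 1 was called higher against ∆Firre and 2 lower, shares close to those of all genes, with a median of −0.14. Esrra, a nuclear receptor, had means of 13.1, 10.2 and 16.7 TPM in WT, ∆Firre and rescue (0.65, SE 0.23, adjusted p = 0.0684). Gabpa, the ETS-family subunit of the factor NRF-2, had 80.2, 88.3 and 67.2 TPM (−0.39, SE 0.09, adjusted p = 0.0142), and Yy1 had 202, 188 and 155 TPM (−0.28, SE 0.11, adjusted p = 0.0832).

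Since so many members differed together, the promoters were searched for letters bound by such regulators. RefSeq promoter windows of 300 bases (GRCm38.p6) matched 80 of 94 member symbols, and the search took the palindromic NRF1 consensus, CCGGAAG for ETS factors, AAGATGGC for YY1 and GGGCGG for SP1, on both strands, with overlaps between strings allowed. The NRF1 string was found in 7 of 80 member promoters (8.75%, beside 2.41% of 9488 genes tested that have a window), the ETS string in 22 (27.5%, beside 21.0%), the YY1 string in 12 (15%, beside 5.55%) and the SP1 string in 39 (48.8%, beside 67.9%). Of the 42 members called higher against ∆Firre, 4 held the NRF1 string, 15 the ETS string, 3 the YY1 string and 15 the SP1 string. Of the other 38 the numbers were 3, 7, 9 and 24. These are matches of letters, given without a test.

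The 250 bases before the start of 4 members are shown because they cover the range of the results, Uqcr11 with the largest difference from ∆Firre on the TPM scale (1.34, and 1.02 after correction for GC content, below Uqcrq at 1.39 and Ndufb6 at 1.34), Cox6a1 and Atp5k as members called higher with the NRF1 string, and Sdha as the member called lower. They lie at chr10:80406822-80407071, minus strand, chr5:115348959-115349208, minus strand, chr5:108434400-108434649, minus strand and chr13:74350241-74350490, minus strand, in GRCm38.p6. Capitals mark matches to any of the 4 strings on either strand.
Uqcr11: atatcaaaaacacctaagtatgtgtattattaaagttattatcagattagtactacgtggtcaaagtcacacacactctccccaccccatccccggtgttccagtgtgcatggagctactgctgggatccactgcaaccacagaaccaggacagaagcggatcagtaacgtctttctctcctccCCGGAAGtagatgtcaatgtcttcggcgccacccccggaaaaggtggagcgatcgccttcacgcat
Cox6a1: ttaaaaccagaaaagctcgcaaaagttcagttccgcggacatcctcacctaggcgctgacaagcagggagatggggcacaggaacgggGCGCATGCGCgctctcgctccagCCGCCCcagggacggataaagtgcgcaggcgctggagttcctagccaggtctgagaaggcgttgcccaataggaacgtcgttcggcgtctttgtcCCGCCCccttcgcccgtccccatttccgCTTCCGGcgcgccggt
Atp5k: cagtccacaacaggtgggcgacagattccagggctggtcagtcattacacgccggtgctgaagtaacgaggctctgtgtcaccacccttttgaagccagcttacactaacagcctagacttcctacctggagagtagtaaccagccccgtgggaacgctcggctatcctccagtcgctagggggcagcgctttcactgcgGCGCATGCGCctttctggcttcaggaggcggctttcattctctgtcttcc
Sdha: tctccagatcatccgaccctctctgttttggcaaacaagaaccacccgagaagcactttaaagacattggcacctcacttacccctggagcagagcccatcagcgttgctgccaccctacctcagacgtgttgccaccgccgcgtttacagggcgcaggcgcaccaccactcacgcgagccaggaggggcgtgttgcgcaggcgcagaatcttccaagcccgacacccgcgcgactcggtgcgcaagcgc
The Uqcr11 window holds 1 ETS string 66 bases before the start. The Cox6a1 window holds an NRF1 string at 162 bases, SP1 strings at 139 and 44 bases and an ETS string at 16 bases before the start, and the Atp5k window an NRF1 string at 50 bases. The Sdha window holds none of the 4.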

How the data were processed

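RNA was measured in 12 libraries of sorted CLPs, 4 each of WT, ∆Firre (KO) and rescue mice, made by the authors with a poly(A) capture kit and sequenced in pairs. Per the submitters' notes and methods, reads were trimmed with cutadapt, aligned with TopHat2 2.1.1 to mm10 and counted per gene with featureCounts, and the deposited values are TPM, read counts per base of gene on a common total, so that each value depends on the other genes of its library.

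Gene names were paired with identifiers through an Ensembl symbol table and RefSeq synonyms (GRCm38.p6), which named 13086 of the 14479 genes tested. The main test was limma 3.58.1 (R 4.3.3, moderated, with trend) on log2(TPM + 1) over all 12 libraries, for genes with a mean of at least 1 TPM, Benjamini-Hochberg adjusted over all of them and called at 0.1. The pseudocount understates differences of low genes. Differences are the first group minus the second, with limma's standard errors and 95% intervals. p-values measure the spread between these libraries. The values moved in steps of single reads for 14405 of 14479 genes (99.5%, within 0.05 of a whole read, a tolerance widened for genes with many reads). This gave the reads behind them and allowed limma-voom (median-ratio library sizes) as an alternative. Respiratory genes have processed pseudogenes, 6 of which had a mean of at least 1 TPM (Cox7c-ps1 the highest, 21.5 TPM), and how shared reads were assigned is not given in the sources used here, so values of members with near copies are uncertain. Exon length and GC content were taken from another release (GENCODE vM1, NCBIM37 sequence) and cover 90.4% of the genes tested. The GC and length corrections (a spline on 4 degrees of freedom per library) were added after the data were seen. The limma step was tested on simulated reads for rescue against ∆Firre. Of 200 genes changed 2-fold it called 136 (68%), together with 21 unchanged genes, so it missed part of such changes. With no gene changed it called 2 of 14405.

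The members, gene lists and marker lists were chosen with earlier results of these data known. Genes were named by rule: per comparison the 5 largest rises and falls among called members, or the 3 smallest p where none was called, per complex the highest, the lowest and the most changed called member, the 4 Sdh subunits and the alternative forms. Others, such as Ndufs1 and Atp5l, were named for their role after their values were seen. One result is not reported here. Alternatives were other pseudocounts (0.1 and 5), filters, scalings, a threshold of 0.05, fits without each library, fits with only the groups compared, and blocks for mouse number and library number range. The range block splits only the WT and ∆Firre libraries. The mouse number block covers 8 and 11, which no rescue mouse carries. Neither block can therefore adjust for a batch that goes with the rescue libraries.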

Additional observations from a re-analysis of the deposited data

Results flagged for a closer look

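Of 114 sets of 4 libraries (38 members named by rule in 3 groups), 4 held a library that stood apart from the other 3 by Dixon's test at the 95% level, beside the 5.7 that chance alone would give at 1 in 20. On the log2(TPM + 1) scale, Uqcrc1 was at 6.55 in WT replicate 8, where the others were all at 6.17 (92.4 against 71.2 TPM). Ndufb4 was at 5.30 in WT replicate 8, below the others at 5.96 to 6.07 (38.4 against 61.1 to 66.1 TPM). Ndufb4 was also at 6.32 in rescue replicate 4, below the others at 6.81 to 6.87 (79.1 against 111 to 116 TPM). Cox8a was at 9.52 in KO replicate 8, above the others at 8.92 to 9.02 (733 against 484 to 518 TPM).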

How the results depend on the processing

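Across all alternatives run, the number of members called stayed within 1.5 times the main count in both comparisons with rescue, and stayed at 0 of 95 between ∆Firre and WT. No block among these alternatives can adjust for a batch that goes with the rescue libraries. Leaving out each library in turn gave 40 to 52 members called for rescue against ∆Firre and 38 to 50 for rescue against WT, with 40 to 51 and 36 to 46 of them higher. Of all 14479 genes, these fits called 867 to 1578 and 529 to 817 higher. Without a filter on low values 41 and 39 were called (0 and 2 of them lower), beside 952 and 512 of 25277 genes called higher. At a threshold of 0.05 they were 41 and 38 (0 and 2 lower), beside 886 and 483 of 14479 genes higher, and with limma-voom on recovered reads 54 and 49 (none lower), beside 13.1% and 8.31% of genes higher. Leaving the genes of Firre, ribosomal proteins, mitochondrial DNA and immunoglobulins out of the TPM sum gave 51 and 48 (0 and 1 lower). In that setting 1447 and 857 of 14231 genes were called higher. Subunits alone, without assembly factors, gave 49 of 79 and 42 of 79 (48 and 41 of them higher), where 8.58% and 4.82% of all genes were called higher.

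The mouse numbers 8 and 11 occur in both WT and ∆Firre, but the deviations of the libraries that share them from the group means correlated at only −0.03 and −0.04 over genes, so the numbers were not taken as pairs. With a replicate block on the mouse numbers, 0, 41 and 32 members were called for ∆Firre against WT, rescue against ∆Firre and rescue against WT. Under this block the higher calls over all genes also fell, from 1242 to 922 and from 698 to 437 in the comparisons with rescue.

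The alternatives were followed for 53 differences of members named by rule. These were the called differences, together with those of Ndufs8, Ndufb3 and Uqcrc1 between ∆Firre and WT, which were not called. Of the 53, 31 kept their direction and their side of the threshold in all 23 alternatives. Among these 53 the direction reversed in 5 cases, all with the GC correction. Sdha in rescue against ∆Firre went to 0.06, and to 0.16 with the replicate block added, and against WT to 0.08 with both. Cox6a1 in rescue against ∆Firre went to −0.11, and to −0.05 with the block. The cause of these reversals was not tested. All other differences that were not called lay outside the 53, and some of them crossed the threshold or changed sign, also without the GC correction. Ndufb2 in rescue against ∆Firre went from −0.07 to 0.05 after median-ratio rescaling. The lower calls of Sdha, Sdhaf2 and Ndufaf4 rest on the TPM scale. Rescue was sequenced more deeply than the other groups, yet each rescue library listed fewer genes above 0 TPM than any ∆Firre library. With 4 libraries a group the 95% intervals of members not called are wide enough to hold small differences.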
